A study of Homo sapiens with 24 samples.

Results

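Messenger RNA of 10 genes of the G1 cell cycle checkpoint was followed in a lymphoma cell line exposed to dimethyl fumarate. The genes were taken by symbol from 21831 listed in every library: the D cyclins CCND2 and CCND3, their kinases CDK4 and CDK6, the kinase inhibitors CDKN1A, CDKN1B, CDKN2C and CDKN2D, and the p53 target genes MDM2 and AEN. All 10 were measured in all 24 libraries and passed the filter on low counts. HBL-1 is an established human line of the activated B-cell-like type of diffuse large B-cell lymphoma. Cells received 20 µM dimethyl fumarate (DMF), an electrophilic ester that reacts with cysteines, in the solvent DMSO, or DMSO alone (control). Both treatments were sampled 6, 12, 24 and 48 h later, in 3 libraries each, so every time has its own control. All groups share the line, the medium and the solvent. The labels do not say whether replicates were separate cultures, so p-values measure only the spread between these samples, which may be technical.

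D cyclins bind CDK4 or CDK6, and the complexes phosphorylate the retinoblastoma protein, which frees E2F factors and lets a cell enter S phase. The INK4 inhibitors, among them CDKN2C (p18) and CDKN2D (p19), bind CDK4 and CDK6, while the CIP/KIP inhibitors CDKN1A (p21) and CDKN1B (p27) act mainly on CDK2 complexes. CDKN1A, MDM2 and AEN are textbook targets of the tumour suppressor p53. MDM2 is the ubiquitin ligase that keeps p53 low, and AEN is an exonuclease that takes part in apoptosis. B cells use mainly CCND2 and CCND3, and CCND2 is induced when the B-cell receptor is engaged.

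Libraries held 23097873 to 40906596 estimated counts, except replicate 1 of DMF at 48 h, which held 2870751. At 12 h, replicate 3 of each treatment differed from the other 22 libraries. Ribosomal protein genes took 20.8% to 26.4% of its counts and 8.75% to 13.9% elsewhere, and its reads came from shorter transcripts, with a count-weighted effective length of 1902 (control) and 2121 (DMF) bases compared with 2850 to 3157. Counts of calls among the 10 genes are therefore given with all 24 libraries and again in the 22 others. Every call of DMF against control made for the 10 genes with all libraries was also made, with the same sign, in the 22. The B-cell markers CD79A, CD79B, MS4A1, CD22 and PAX5 were present in every library, as was IRF4, which marks the activated B-cell-like type. The 9 markers of T cells, monocytes, epithelium and fibroblasts summed to 4.65 to 15.2 TPM (transcripts per 1000000), against 3604 to 6312 TPM for the 5 B-cell markers. CD3E was listed at 0 in 16 of 24 libraries. At 48 h the 9 markers summed to 13.9 to 15.2 TPM in DMF and 8.23 to 9.60 TPM in control, with CD68 the larger part of the sum in DMF, and the B-cell markers to 6061 to 6312 and 3753 to 3841 TPM. The part of these shifts in the results was not tested. In bulk RNA, fewer cells with a transcript and less transcript per cell cannot be told apart.

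Promoter windows, from 250 bases before to 50 after a start site, were available for 9 of the 10 genes (17 windows, RefSeq, GRCh38.p14). CCND2 had no window, so no statement on motifs covers it. Those of AEN and MDM2 are shown because they hold the response element of p53, here any match to the 20-base consensus with at most 2 mismatches on either strand, in capitals. Among all 35116 windows, 0.649% hold such a match. That of CDK4 is shown because it holds 3 copies of the E-box CACGTG, the motif bound by MYC and related factors, also in capitals, as do 0.094% of windows. Both limits were set after the sequences were seen, and a match is a description of letters, not a site shown to be bound. Sequence outside the windows was not searched, so a gene without a p53 match here, such as CDKN1A, may hold one elsewhere.
AEN, chr15:88621286-88621339, plus strand: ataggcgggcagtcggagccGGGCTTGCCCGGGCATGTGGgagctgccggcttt
MDM2, chr12:68808903-68808962, plus strand: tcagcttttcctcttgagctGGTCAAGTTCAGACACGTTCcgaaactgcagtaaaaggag
CDK4, chr12:57752396-57752536, minus strand: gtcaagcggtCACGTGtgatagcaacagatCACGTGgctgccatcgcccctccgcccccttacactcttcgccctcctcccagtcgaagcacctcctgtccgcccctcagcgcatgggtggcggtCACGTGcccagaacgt
The AEN match lies 34 to 15 bases before the RefSeq start site of its window, and the MDM2 match lies 94 to 75 bases before the inner of its start sites. The matches printed for AEN, MDM2 and CDK4 all lie inside the GENCODE v29 gene spans given below, which begin further upstream. At least 1 CACGTG, which is its own reverse complement, was found for AEN, CDK4, CDK6 and CDKN2C, in 5 of the 17 windows and 7.26% of all. The antioxidant element core TGACNNNGC, on either strand, was found for CDK4, CDKN1B and MDM2 (4 of the 17 windows, 13.3% of all). The E2F core TTTNNCGC was found for AEN, CDKN2D and MDM2 (4 of the 17 windows, 6.89% of all). The STAT core TTCNNNGAA is in none of the 17 windows and in 7.66% of all.

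With all 24 libraries the genes called at any time were CCND2, CCND3, CDKN1A and AEN. These were also the 4 of the 10 with the smallest spread between replicates in that fit, as given below. CCND2 fell at 12, 24 and 48 h by 1.55-fold to 1.98-fold, CCND3 rose at 24 and 48 h, and CDKN1A rose at 6, 24 and 48 h. A gene was called where its Benjamini-Hochberg adjusted p over all tested genes was under 0.05 in edgeR's quasi-likelihood test. At 6 h 1 of the 10 genes was called higher (CDKN1A), where 10.6% of all 13419 genes tested were called, 5.03% higher and 5.59% lower. At 12 h 1 was called lower (CCND2), where 17.3% of all genes were called, 7.37% higher and 9.95% lower. At 24 h CDKN1A and CCND3 were called higher and CCND2 and AEN lower, 4 in all, against 14.4% of all genes, 7.81% higher and 6.6% lower. At 48 h CDKN1A and CCND3 were called higher and CCND2 lower, 3 in all, against 25.8%, 13.3% higher and 12.5% lower. Without the 2 libraries that differed, 6, 5, 8 and 6 of the 10 were called at the 4 times, where 47.2%, 47.9%, 57.4% and 64.5% of 13606 genes were called. At 6, 12 and 48 h these counts lay near the share of all genes in both fits. Counted by library, DMF and control did not overlap for 7 of the 10 genes at 6 h (59.9% of all genes), 1 at 12 h (16.7%; 6 and 73.6% in the 22 libraries), 8 at 24 h (63.9%) and 6 at 48 h (60.7%). The median log2 fold change of the 10 was 0.14, 0.02, -0.06 and -0.05 at the 4 times. The calls in the 22 libraries were 6, 3, 4 and 2 higher and 0, 2, 4 and 4 lower.

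**Figure D1:**
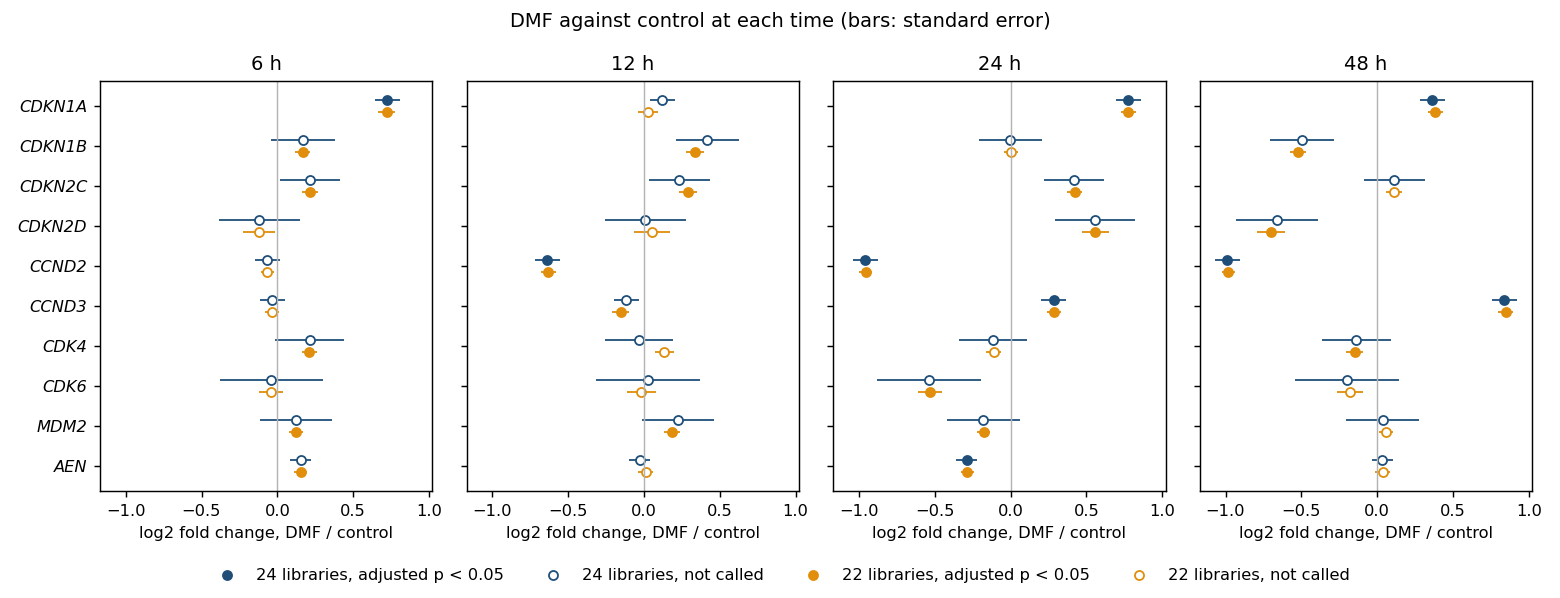
Log2 fold change of DMF against control (horizontal axis) for each of the 10 genes (vertical axis) at 6, 12, 24 and 48 h, for all 24 libraries and for the 22, with standard errors as bars and filled points for adjusted p under 0.05. CCND2 stands at -0.96 and -0.99 at 24 and 48 h, CCND3 rises to 0.84 at 48 h, and CDKN1A dips to 0.12 at 12 h between 0.72 and 0.78.

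CCND2 (chromosome 12, 4273772 to 4305350, plus strand, GRCh38, GENCODE v29), the D cyclin of the B-cell receptor response, had 615, 657 and 611 CPM (counts per 1000000 after TMM scaling) in control at 6 h and 592, 599 and 608 in DMF. The DMF libraries lay just below the control ones, and the difference did not pass the test (log2 fold change -0.07 ± 0.08, standard error here and below, edgeR adjusted p = 0.80). At 12 h the control libraries had 694, 746 and 839.9 CPM and the DMF libraries 448, 479 and 539. It was the only one of the 10 genes whose groups did not overlap at 12 h with all libraries. CCND2 fell 1.55-fold at 12 h (log2 fold change -0.64 ± 0.08, edgeR adjusted p = 2.3e-05, and 2.1e-10 in the 22 libraries).

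By 24 h CCND2 had 778, 782 and 759 CPM in control and 385, 413 and 395 in DMF. At 48 h it had 837, 869.8 and 916 CPM in control and 439, 443 and 441 in DMF. Within each treatment every library of 48 h was above every library of 24 h, and DMF and control did not overlap at either time. From a control mean of 773 ± 12.3 CPM (SD, n = 3) it fell 1.94-fold at 24 h (log2 fold change -0.96 ± 0.08, edgeR adjusted p = 2.4e-07). The fall at 48 h was 1.98-fold, from 874 ± 39.4 to 441 ± 1.72 CPM (-0.99 ± 0.08, 5.4e-08). Both calls held on the TPM scale with limma (log2 fold change -1.01 and -0.75, adjusted p = 0.011 and 0.033), where the call at 12 h was lost (-0.59, adjusted p = 0.18). When only the 6 libraries of that time were fitted in edgeR the log2 fold change was -0.65 (adjusted p = 0.41). That fit called 0 of 12408 genes, with 1109 under an unadjusted p of 0.05, while DESeq2 on all libraries called 2798 at 12 h.

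CCND3 (chromosome 6, 41934933 to 42050357, minus strand) encodes the D cyclin used widely by dividing lymphocytes. At 6 h it had 101, 101 and 102 CPM in control and 93.7, 101 and 102 in DMF, so the groups overlapped (log2 fold change -0.03 ± 0.08, edgeR adjusted p = 0.93). At 12 h it had 160.2, 159.7 and 177 CPM in control and 145, 142 and 171 in DMF. Here DMF was below control in the 2 replicates that did not stand apart, with a log2 fold change of -0.15 ± 0.06 in the 22 libraries (edgeR adjusted p = 0.028) and -0.12 ± 0.08 in all (0.40).

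Later the order of the CCND3 groups turned. At 24 h control had 141, 136 and 148 CPM and DMF 179.7, 169 and 168, a 1.22-fold rise (log2 fold change 0.28 ± 0.08, edgeR adjusted p = 0.025, and 7.3e-06 in the 22 libraries). At 48 h control had 83.4, 94.5 and 81.9 CPM and DMF 153, 159 and 153, a 1.79-fold rise (0.84 ± 0.08, edgeR adjusted p = 4.4e-07). In both treatments every library of 12 h was above every library of 6 h. At 48 h all control libraries were below those of 6 h, and all DMF libraries were above them. The call at 48 h held on the TPM scale with limma (1.10, adjusted p = 0.0025). The call at 24 h was lost there (0.24, adjusted p = 0.80), with DESeq2's size factors in edgeR (0.066) and in 16 of the 24 fits that left out a library (adjusted p of 0.068 to 0.23).

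The D cyclin with the more abundant transcript differed between the treatments. On the per-length TPM scale CCND2 was 1.73 to 1.86 times CCND3 in control at 6 h and 1.70 to 1.80 times in DMF. At 24 h the ratio was 1.48 to 1.66 in control and 0.614 to 0.697 in DMF. At 48 h it was 2.66 to 3.21 in control and 0.795 to 0.821 in DMF. CCND3 was therefore the higher of the pair in every DMF library from 12 h on, and CCND2 was the higher in every control library. At 12 h the ratio was 1.25 to 1.34 in control and 0.887 to 0.969 in DMF, and the replicate 3 libraries, at 1.33 and 0.900, lay inside those ranges. Ratios are given as a description, with no test. CCND1, the third D cyclin, had 0.02 to 0.27 TPM in all 24 libraries. The 3 D cyclins summed to 271 to 305 TPM in control at 48 h and 275 to 292 TPM in DMF, ranges that overlap, while at 24 h they summed to 332 to 336 and 249 to 262 TPM. CCND2 made up 72.7% to 76.2% of the sum in control at 48 h and 44.3% to 45.1% in DMF. The overlap of the TPM sums at 48 h depends on the scaling. There the median log2 fold change of all genes was 0.22 on the TPM scale and 0.015 with TMM. In TMM-scaled CPM the means at 48 h were 874 in control and 441 in DMF for CCND2, and 86.6 and 155 for CCND3.

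**Figure D2:**
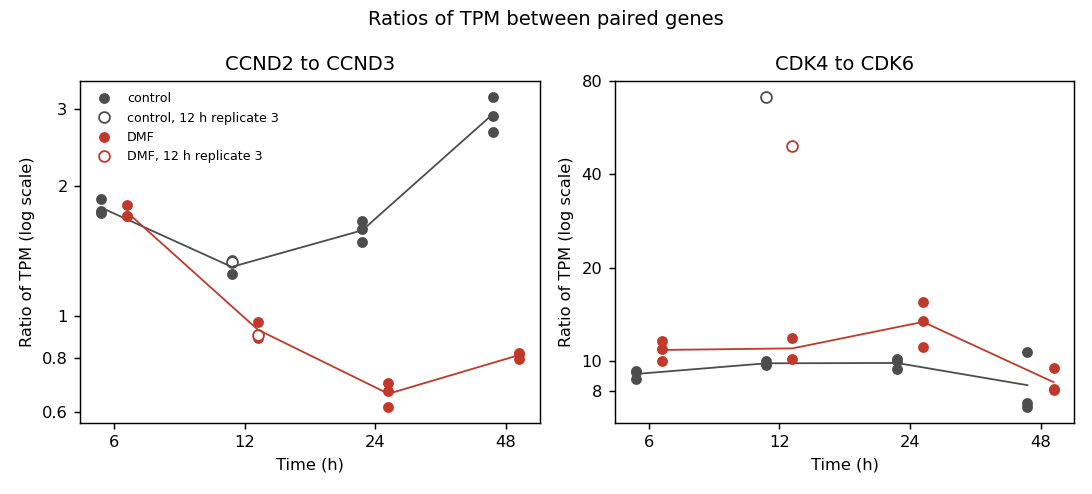
Ratio of CCND2 to CCND3 and of CDK4 to CDK6 in TPM (vertical axes, log scale) by time and treatment. Each point is a library, open circles are replicate 3 of 12 h, and lines join means without them. The CCND2 to CCND3 ratio parts from 12 h on, to 2.93 in control and 0.811 in DMF at 48 h.

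CDK4 and CDK6, the kinases of the D cyclins, were not called at any time with all 24 libraries. CDK4 (chromosome 12, 57747727 to 57756013, minus strand) had 233 to 249 CPM in control and 272 to 285 in DMF at 6 h. These groups did not overlap, and the difference was called in the 22 libraries (log2 fold change 0.21 ± 0.05, edgeR adjusted p = 0.0014) but not in all 24 (0.21 ± 0.23, 0.73). At 24 and 48 h the CDK4 groups overlapped. At 48 h its log2 fold change was -0.14 ± 0.23 (edgeR adjusted p = 0.73), called in the 22 libraries (-0.15, 0.021) but of the other sign on the TPM scale (0.10). CDK4 lies opposite TSPAN31 and MARCH9, which had median counts of 262 and 1536.5 against 7693 for CDK4. The strand used in counting is not given in the sources used here, so reads of overlapping genes could be shared.

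CDK6 (chromosome 7, 92604921 to 92836594, minus strand) had 147, 147 and 151 CPM in control at 24 h and 93.7, 115 and 98.7 in DMF. No DMF library reached the control ones, and the difference was called in the 22 libraries (log2 fold change -0.53 ± 0.08, edgeR adjusted p = 3.8e-06) but not in all (-0.54 ± 0.34, 0.37). At 6 and 48 h its groups overlapped, with log2 fold changes of -0.04 ± 0.34 and -0.20 ± 0.34 (edgeR adjusted p = 0.98 and 0.75). CDK4 exceeded CDK6 per length in every library, by 7.07 to 15.5 times outside replicate 3 of 12 h. For replicate 3 of 12 h the ratio was 70.8 in control and 49.5 in DMF.

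**Figure D3:**
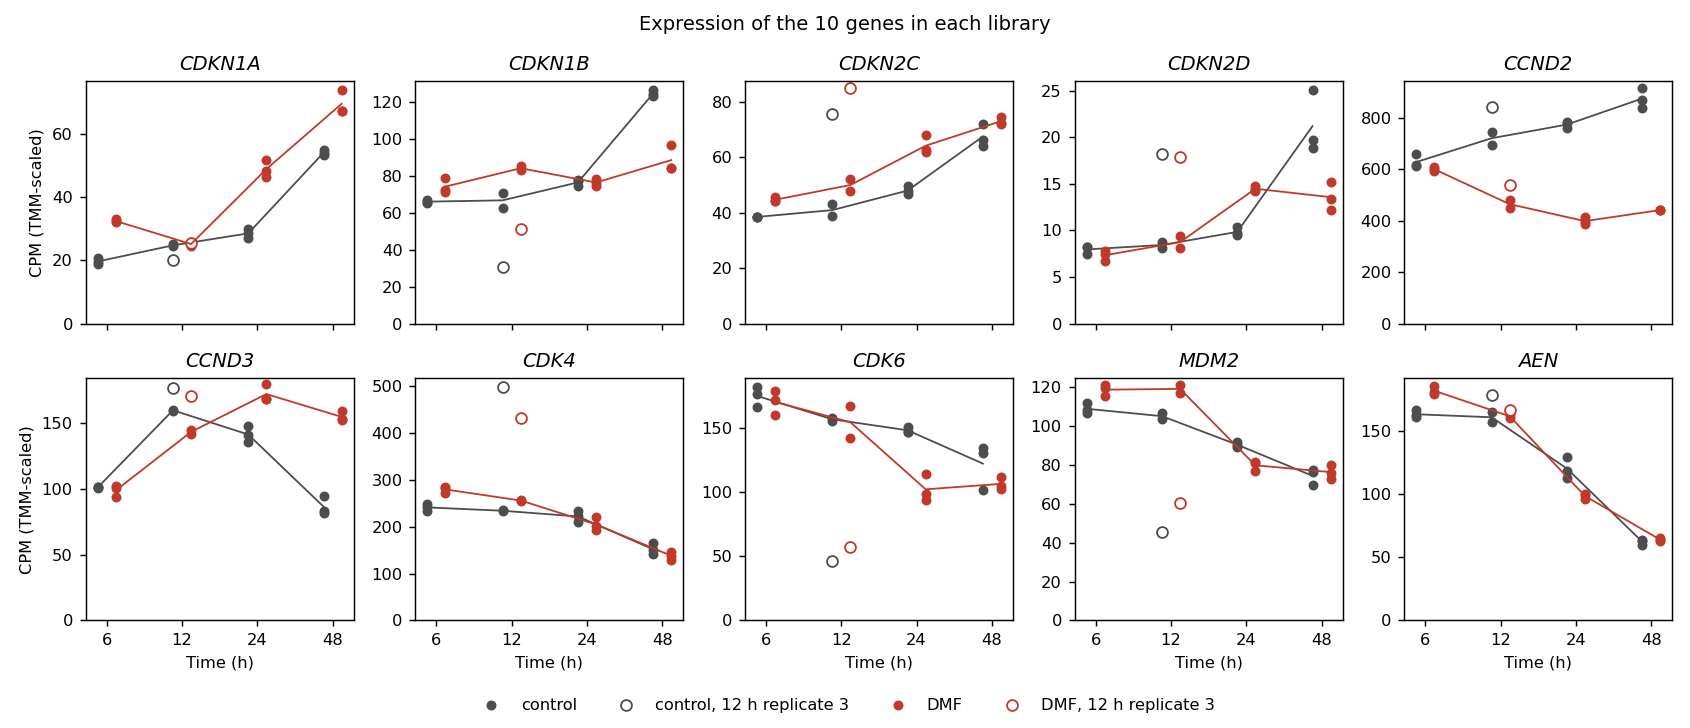
CPM after TMM scaling (vertical axes) of the 10 genes by time and treatment. Each point is a library, open circles are replicate 3 of 12 h, and lines join the means without them; CCND2 falls to 398 CPM under DMF at 24 h while control stands at 773.

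CDKN1A (chromosome 6, 36676460 to 36687339, plus strand), which encodes p21, had 20.6, 18.9 and 19.4 CPM in control at 6 h and 32.3, 33.0 and 31.98 in DMF. Every DMF library was above every control, a 1.65-fold rise (log2 fold change 0.72 ± 0.08, edgeR adjusted p = 8.1e-06). At 12 h it had 24.4, 25.0 and 20.1 CPM in control and 24.6, 25.6 and 25.4 in DMF. The groups overlapped, with a log2 fold change of 0.12 ± 0.08 (edgeR adjusted p = 0.38), or 0.03 ± 0.07 in the 22 libraries (0.76).

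The rise of CDKN1A returned at 24 h, with 27.2, 29.8 and 28.6 CPM in control and 51.7, 46.4 and 48.4 in DMF. This was a 1.71-fold change (log2 fold change 0.78 ± 0.08, edgeR adjusted p = 3.2e-06). At 48 h control had 55.0, 53.2 and 53.8 CPM, and DMF 67.2, 67.4 and 74.0, a 1.29-fold rise (0.36 ± 0.08, edgeR adjusted p = 0.0026). The groups did not overlap at 6, 24 or 48 h. Of the 8 groups, CDKN1A was lowest in control at 6 h and highest in DMF at 48 h. All 3 calls were lost on the TPM scale with limma, where log2 fold changes were 0.58, 0.73 and 0.60 (adjusted p = 0.44, 0.24 and 0.24). That fit kept replicate 3 of 12 h, where CDKN1A stood at 0.288 (control) and 0.501 (DMF) times the mean of the other replicates. In TPM the groups still did not overlap at these times, with 15.7 to 17.3 in control and 23.8 to 25.5 in DMF at 6 h. The part of those libraries in the lost calls was not tested.

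CDKN1B (chromosome 12, 12715058 to 12722371, plus strand), which encodes p27, moved in opposite directions early and late in the 22 libraries. At 12 h it had 62.7, 70.8 and 30.7 CPM in control and 83.0, 85.2 and 51.3 in DMF. The replicate 3 libraries were the low ones in both groups. With them the log2 fold change was 0.42 ± 0.21 (edgeR adjusted p = 0.20), and without them 0.34 ± 0.06 (3.3e-05). At 24 h the groups overlapped, at 74.3 to 77.7 CPM in control and 74.8 to 78.4 in DMF. At 48 h CDKN1B had 127, 124 and 123 CPM in control and 97.0, 84.2 and 84.4 in DMF, with no overlap. That difference of -0.50 ± 0.21 was not called with all libraries (edgeR adjusted p = 0.095) but was called without replicate 3 of 12 h (-0.52 ± 0.05, 1e-09).

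CDKN2C (chromosome 1, 50960745 to 50974633, plus strand), which encodes the INK4 inhibitor p18, had 49.5, 46.5 and 47.7 CPM in control at 24 h and 67.8, 62.7 and 61.7 in DMF. All DMF libraries were above control (log2 fold change 0.42 ± 0.20, edgeR adjusted p = 0.20, and 0.42 ± 0.05, 5.8e-08 in the 22 libraries). It also passed in the 22 libraries at 6 and 12 h (0.21 and 0.29, edgeR adjusted p = 0.0012 and 3.3e-04). At 48 h DMF had 72.0 to 74.5 CPM against 64.1 to 72.0 in control, and neither edgeR fit called it (0.11, 0.75 and 0.058). On the TPM scale with limma CDKN2C was called at 24 and 48 h (0.38 and 0.35, adjusted p = 0.019 and 0.014). CDKN2D (chromosome 19, 10566462 to 10569059, minus strand), the p19 gene and the shortest transcript of the 10, turned from higher to lower. At 24 h it had 9.71, 10.3 and 9.48 CPM in control and 14.5, 14.7 and 14.2 in DMF. At 48 h it had 18.8, 25.1 and 19.7 CPM in control and 15.2, 12.2 and 13.3 in DMF. Its groups did not overlap at either time. Both were called in the 22 libraries (log2 fold change 0.56 ± 0.09 and -0.70 ± 0.09, edgeR adjusted p = 9.6e-06 and 3.5e-07). With all 24 neither was (0.56 ± 0.27 and -0.66 ± 0.27, 0.20 and 0.084), while limma on the TPM scale called both (0.50 and -0.40, 0.015 and 0.030). In the shallowest library, replicate 1 of DMF at 48 h, CDKN2D rested on 50 counts.

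The p53 targets MDM2 and AEN were not called higher at any time with all 24 libraries. MDM2 (chromosome 12, 68808176 to 68850686, plus strand) had 107 to 112 CPM in control and 116 to 121 in DMF at 6 h. At 24 h it had 89.4 to 91.7 CPM in control and 76.9 to 81.6 in DMF, the opposite order. Neither was called with all libraries (log2 fold change 0.12 ± 0.24 and -0.18 ± 0.24, edgeR adjusted p = 0.90 and 0.72). Both were called in the 22 (0.12 and -0.18, 0.021 and 0.0012), but the difference at 6 h had the other sign on the TPM scale (-0.02). At 12 h MDM2 was higher in DMF in the 22 libraries (0.19 ± 0.05, edgeR adjusted p = 0.0049), and at 48 h the groups overlapped.

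AEN (chromosome 15, 88621296 to 88632282, plus strand) had 161, 163 and 166 CPM in control at 6 h and 181, 179 and 186 in DMF. DMF was higher in every library, which the 22 libraries called (log2 fold change 0.15 ± 0.04, edgeR adjusted p = 0.0031) and all 24 did not (0.16 ± 0.07, 0.19). At 12 h the groups overlapped, at 157 to 179 CPM in control and 161 to 167 in DMF. At 24 h AEN had 119, 113 and 129 CPM in control and 99.8, 96.2 and 99.7 in DMF, a 1.22-fold fall (-0.29 ± 0.07, edgeR adjusted p = 0.0071). At 48 h it had 60.0 to 63.9 CPM in control and 63.3 to 65.1 in DMF. The call at 24 h was lost without replicate 3 of control at 24 h (adjusted p = 0.091), without replicate 2 of DMF at 24 h (0.062), and on the TPM scale (-0.34, 0.68).

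Whether the DMF effect depended on time was tested over the 4 times jointly. The effect differed for 4 of the 10 genes, CCND2, CCND3, CDKN1A and AEN, where 15% of all genes did (edgeR adjusted p = 5.2e-05, 4.9e-05, 0.0014 and 0.018). All 10 differed in the 22 libraries, and so did 69.1% of all genes. Between 6 and 24 h the DMF effect on CCND2 moved by -0.89 ± 0.12 on the log2 scale and that on AEN by -0.44 ± 0.10 (edgeR adjusted p = 8.2e-05 and 0.0086; 6.48% of all genes called). Between 6 and 48 h CCND2 moved by -0.92 ± 0.12 and CCND3 by 0.87 ± 0.12 (3.0e-05 and 5.5e-05; 12.3%). From 24 to 48 h, with all libraries, CCND3 was the 1 gene of the 10 called (0.56 ± 0.12, edgeR adjusted p = 0.012; 3.12%). These 3 contrasts called 8, 6 and 8 of the 10 in the 22 libraries, against 44.4%, 50.9% and 41.2% of all genes. On the TPM scale with limma the differences of CCND2 and AEN between 6 and 24 h (adjusted p = 0.27 and 0.9999), of CCND2 between 6 and 48 h (0.39) and of CCND3 between 24 and 48 h (0.26) were not called. For CDKN2D the step from 24 to 48 h was the largest of the 10 in size, -1.22 ± 0.38 (edgeR adjusted p = 0.096, and 3.5e-08 in the 22 libraries). The contrasts between times share groups, so they are not separate evidence.

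Control cells also differed between 6 and 48 h. From 6 to 48 h 8 of the 10 genes were called in control, 5 higher and 3 lower, where 42% of all genes were called, 21.6% higher and 20.4% lower. All 4 inhibitors rose: CDKN1A rose 2.75-fold, CDKN2D 2.66-fold, CDKN1B 1.89-fold and CDKN2C 1.75-fold (edgeR adjusted p = 1.7e-10, 3.2e-04, 0.0016 and 0.0029). CCND2 rose 1.39-fold (1.1e-04). AEN fell 2.62-fold and CDK4 1.59-fold (edgeR adjusted p = 3.0e-11 and 0.023). CCND3 fell 1.17-fold (0.036), a call lost in 20 of 24 fits that left out a library and with DESeq2 (adjusted p = 0.061). CDK6 and MDM2 were lower by 1.43-fold and 1.46-fold without passing (0.25 and 0.074). All 10 were called in the 22 libraries, 5 in each direction, where 75% of all genes were called. Jointly over the 4 times, control changed for 8 of the 10 (55.1% of all genes), and for all 10 in the 22 libraries (84.8%).

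Per length, CDK4 was the most abundant of the 10 in control at 6 h, with a median of 225 TPM, followed by CCND2 with 158. CCND3 and AEN came next at 89.9 and 89.8 TPM and did not differ beyond their spread. Below them were CDKN1B at 47.0, CDKN2C at 34.7, CDK6 and MDM2 at 24.6 and 24.0 with overlapping ranges, CDKN1A at 16.4 and CDKN2D at 13.9 TPM. After 48 h of DMF the order was led by CCND3 at 154 TPM, CDK4 at 144 and CCND2 at 126, and the ranges of these 3 did not overlap. In control at 48 h CCND2 led at 209 TPM, and CCND3, at 72.5, stood below CDK4 and CDKN1B. CDKN1A reached 64.4 TPM in DMF and 44.9 in control at 48 h, where it no longer ranked near the bottom.

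Replicate 3 of 12 h departed from replicates 1 and 2 unevenly across the 10 genes. In TPM it stood at 0.105 times their mean for CDK6 in control and 0.183 times in DMF, and at 0.171 and 0.279 times for MDM2. These are the genes with the longest effective transcripts, 11441 and 7132 bases. CDKN2D, with 937 bases, stood at 0.757 and 1.04 times. Length did not order all genes: CDKN1B, with 2261 bases, was at 0.163 and 0.301 times, and CCND2, with 6260 bases, at 0.414 and 0.575 times. In TPM both libraries were below the mean of the other replicates for every gene except CDKN2D in DMF. In the TMM-scaled CPM of the edgeR tests the direction differed between genes. Replicate 3 was there the highest in both treatments for CDK4, CDKN2C, CDKN2D, CCND2, CCND3 and AEN, and the lowest for CDKN1B, CDK6 and MDM2. For CDK4 in control it had 499.6 CPM against 233 and 235. The spread between replicates shrank without these libraries, from a biological coefficient of variation of 0.294 to 0.0694 for CDK6 and 0.0893 to 0.0369 for CDKN1A. With all libraries this coefficient was 0.0868 to 0.0952 for CCND2, CCND3, CDKN1A and AEN, and 0.179 to 0.294 for the other genes. In the 22 libraries it was 0.0348 to 0.0694 for all 10. The genes called with all 24 libraries were those with the smaller spread in that fit. Among them CCND2, CCND3 and CDKN1A also had large log2 fold changes (-0.99 and 0.84 at 48 h, 0.78 at 24 h). AEN was called at -0.29 at 24 h, while CDKN2D at -0.66 at 48 h was not. The part of replicate 3 of 12 h in these calls was not tested.

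**Figure D4:**
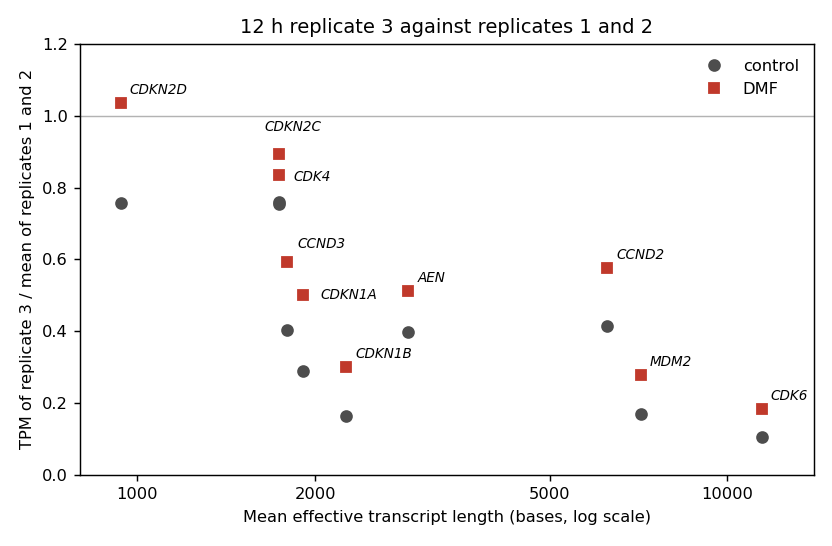
TPM in replicate 3 of 12 h divided by the mean of replicates 1 and 2 (vertical axis) against mean effective transcript length in bases (horizontal axis, log scale) for the 10 genes, control and DMF. The longest transcripts, CDK6 and MDM2, lie lowest with CDKN1B, and CDKN2D in DMF stands at 1.04.

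The wider pathway was read from 6 lists of genes, each set beside the share of all genes called at the 4 times, 10.6%, 17.3%, 14.4% and 25.8% with all libraries and 47.2%, 47.9%, 57.4% and 64.5% in the 22. Among S phase genes, which are transcribed when E2F is free, 3, 9, 3 and 8 of 16 tested fell at 6, 12, 24 and 48 h and none rose in all libraries. Their median log2 fold change was -0.12, -0.37, -0.23 and -0.38, against -0.00, -0.05, 0.01 and 0.02 for all genes. In the 22 libraries 10, 15, 16 and 14 fell, and 1 rose at 48 h. On the TPM scale with limma 3, 4, 3 and 2 fell, with medians of -0.26, -0.31, -0.28 and -0.14. With all 24 libraries no S phase gene was higher at an unadjusted p under 0.05 with edgeR, nor called higher with DESeq2. MCM3, a subunit of the replicative helicase, fell at all 4 times, from 905 ± 52.2 to 709.9 ± 5.71 CPM at 12 h (n = 3, log2 fold change -0.35 ± 0.07, edgeR adjusted p = 9.4e-04). PCNA, the sliding clamp of DNA polymerase, also fell at all 4, by 0.54 ± 0.11 on the log2 scale at 12 h (0.0016). CDC45 was lower by 0.92 ± 0.16 at 12 h (4.0e-04), and CDT1, which loads the helicase, by 1.07 ± 0.28 at 48 h (0.0073).

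Of 24 other cyclins and their regulators tested, 2, 1, 2 and 1 rose and 1, 1, 5 and 7 fell at the 4 times, which is 12.5%, 8.33%, 29.2% and 33.3% called. Without the 2 libraries 10, 5, 5 and 4 rose and 4, 6, 10 and 12 fell. On the TPM scale 1 rose and 0 fell at 24 h, and 2 rose and 2 fell at 48 h. The median at 48 h was -0.16 and turned to 0.06 on the TPM scale. CCNB1, the mitotic cyclin B1, rose at 6 h from 288 ± 9.39 to 388 ± 12.4 CPM (log2 fold change 0.43 ± 0.09, edgeR adjusted p = 0.0038) and fell at 24 h from 227 ± 7.93 to 169 ± 5.67 CPM (-0.43 ± 0.09, 0.0031). At 48 h CDK1, CCNB2 and CCNB1 were all lower (-0.47 ± 0.08, -0.78 ± 0.14 and -0.47 ± 0.09, edgeR adjusted p = 3.1e-04, 4.1e-04 and 7.1e-04). CDKN2B, the INK4 inhibitor p15, rose at 48 h from 0.548 ± 0.0727 to 2.46 ± 1.08 CPM (2.31 ± 0.30, edgeR adjusted p = 1.2e-05). Its levels were low, and the DMF group includes the shallowest library, with 2870751 counts over all genes.

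Pocket proteins and E2F genes gave 1 rise and 1 fall of 17 at 6 h, 1 and 3 at 12 h, 0 at 24 h and 1 rise at 48 h. Their medians were -0.28, -0.27, -0.12 and -0.07, and limma on the TPM scale called 0 of the 17 at any time. At 24 h 0 genes were under an unadjusted p of 0.05 with edgeR and DESeq2 called 0, while the 22 libraries called 3, 3, 4 and 5 higher and 10, 10, 7 and 7 lower at the 4 times. E2F6, a repressor of the family, rose at 6 h from 52.96 ± 1.72 to 83.4 ± 0.748 CPM (log2 fold change 0.66 ± 0.11, edgeR adjusted p = 3.5e-04) and again at 12 and 48 h (0.81 and 0.41). E2F1 and E2F2, activators of S phase genes, fell at 12 h (-0.59 ± 0.15 and -0.50 ± 0.11, edgeR adjusted p = 0.0073 and 0.0022).

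Other p53 targets were called in both directions. Of 31 tested of 32 listed, 4, 3, 3 and 6 rose and 1, 2, 2 and 4 fell at the 4 times, with medians of -0.02, 0.00, 0.09 and 0.07. These are 16.1%, 16.1%, 16.1% and 32.3% of the list, near the share of all genes. In the 22 libraries 6, 7, 12 and 12 rose and 8, 5, 7 and 7 fell, which is 45.2%, 38.7%, 61.3% and 61.3%. PMAIP1, the pro-apoptotic NOXA gene, rose at 6 h from 66.1 ± 0.482 to 124 ± 4.69 CPM (log2 fold change 0.91 ± 0.21, edgeR adjusted p = 0.0083). BTG2, an antiproliferative gene, rose at 24 h from 137 ± 6.35 to 239 ± 4.62 CPM (0.80 ± 0.15, 9.0e-04). TIGAR, which lowers glycolytic flux, rose at 48 h (1.32 ± 0.11, edgeR adjusted p = 2.7e-08), while CCNG1 and GADD45A fell (-1.24 ± 0.10 and -1.48 ± 0.19, 5.5e-08 and 8.8e-06). DDB2, a DNA damage sensor, fell at 12 h (-1.20 ± 0.23, edgeR adjusted p = 9.4e-04). SESN2, a sestrin also induced by amino acid stress, rose at 6 h, fell at 24 h and rose at 48 h (1.35, -0.56 and 0.66, each ± 0.07, edgeR adjusted p = 2.4e-10, 1.3e-05 and 7.1e-07).

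Of 12 regulators of p53, 0, 0, 2 and 2 fell at 6, 12, 24 and 48 h and 0 rose with all libraries. At an unadjusted p under 0.05 edgeR with all libraries had 1 higher and 1 lower at both 6 and 12 h and 0 higher at 24 and 48 h. DESeq2 called 0 higher at any time and 1, 1, 2 and 1 lower. CHEK1, the checkpoint kinase of stalled replication, fell at 24 and 48 h (-0.38 ± 0.11 and -0.60 ± 0.11, edgeR adjusted p = 0.030 and 6.3e-04). Limma on the TPM scale called 0 of the 12 at any time, CHEK1 included. Of the 12, 3, 4, 1 and 3 were called higher and 3, 4, 9 and 5 lower in the 22 libraries, which is 50%, 66.7%, 83.3% and 66.7%. Among 12 transcription factors known to act on these genes in B cells, 1 rose at 6 h, and 2, 2 and 5 fell at the later times, with 1 rise at 12 h. The 22 libraries gave 3, 3, 2 and 2 rises and 4, 6, 7 and 7 falls. With limma on the TPM scale 0, 1 and 1 rose and 1, 1 and 1 fell at 12, 24 and 48 h. The list median at 48 h was -0.29 with all libraries in edgeR. It was -0.02 on the TPM scale, against 0.22 for all genes there. MYC, which acts at E-boxes, fell at 12, 24 and 48 h, from 315 ± 9.12 to 155 ± 10.5 CPM at 48 h (-1.02 ± 0.07, edgeR adjusted p = 6.1e-09). A link between MYC and the E-boxes printed for CDK4 was not tested. STAT5A, a cytokine-activated factor, fell at the same times, by 1.44 ± 0.12 on the log2 scale at 12 h and 1.31 ± 0.13 at 48 h (edgeR adjusted p = 1.8e-07 and 2.6e-07). PRDM1, the plasma cell factor BLIMP1, rose at 6 h from 2.21 ± 0.110 to 5.32 ± 0.540 CPM (1.27 ± 0.27, 0.0036).

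**Figure D5:**
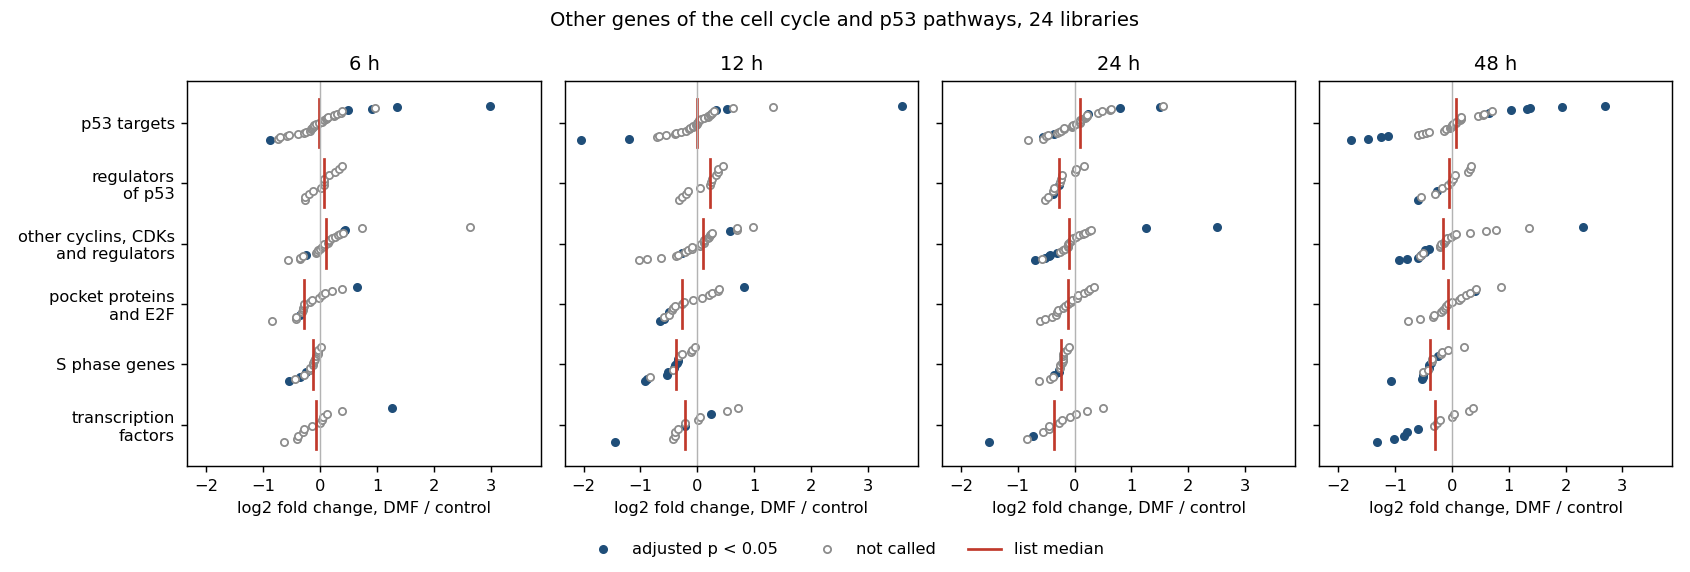
Log2 fold change of DMF against control (horizontal axis) of each gene in the 6 lists at each time, with all 24 libraries; filled points passed an adjusted p under 0.05 and red lines are list medians. S phase genes are called lower only, 9 of 16 at 12 h, while p53 targets are called in both directions, 6 higher and 4 lower of 31 at 48 h.

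Across the 8 group means of the 22 libraries, CDKN1A varied most like NAAA, CNFN and KLHL12 (Pearson r of 0.987, 0.987 and 0.983 on log2 CPM), and 57 genes had r over 0.95 with it. CCND2 varied most like LMO7, KCNH8 and LRRFIP1 (0.988, 0.984 and 0.984), with 25 genes over 0.95. Among the 10 genes, CDKN1A went with CDKN2C (0.954), CDK4 with AEN (0.974) and MDM2 with AEN (0.951). CCND2 and CCND3 had r of -0.581. The CDKN1A and MDM2 means ran opposite (-0.835). These are descriptions over 8 points that share the change of the control cells with time.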

How the data were processed

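Total RNA of HBL-1 was extracted with the Qiagen RNeasy Mini kit, per the labels' protocols. The submitters' processing notes name HISAT2, HISAT, RSEM and GRCh38.p12, without versions. The authors deposited a gene table per library with expected counts (RSEM's estimated reads, not normalized), TPM and FPKM values, and effective lengths in bases, per the file headers. The deposited TPM values gave levels, ratios and an alternative fit, and the deposited FPKM values were used only to recompute the ratios. Coordinates came from GENCODE v29 and promoter windows from RefSeq.

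Expected counts were rounded, filtered with filterByExpr by group (13419 of 21831 genes) and TMM-scaled with edgeR 4.0.16 under R 4.3.3. A quasi-likelihood fit of all 24 libraries had a mean for each of 8 groups and 16 residual degrees of freedom. Contrasts were DMF minus control within a time, the difference of these between times, and control over time. Benjamini-Hochberg adjustment ran over all tested genes, and standard errors were the absolute log2 fold change divided by the square root of F. The same fit was made on 22 libraries (13606 genes, 14 residual degrees of freedom). The common dispersion was 0.0521 and 0.00212. Other alternatives were DESeq2 1.42.0, its size factors in edgeR, no filter (18123 genes), a replicate block, only the groups compared, limma 3.58.1 with trend on log2(TPM + 0.1) and log2(TPM + 1), and each library left out. The limma fits on TPM used all 24 libraries, and none was made on the 22. The steps were tested on simulated data.

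The 10 genes and the 6 lists were chosen with earlier results of these data known, and 2 genes of the marker and pathway lists are not reported here. List genes are named where they were among the 4 smallest p-values of their list at a time, and genes alike in pattern are the 3 highest correlations. Between 10.2% and 16.2% of the nonzero expected counts were not whole. No 2 libraries were identical.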

Additional observations from a re-analysis of the deposited data

Results flagged for a closer look

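The DMF effect differed between times for 4 of the 10 genes in the joint edgeR test of the 4 times: CCND2 (adjusted p = 5.2e-05), CCND3 (4.9e-05), CDKN1A (0.0014) and AEN (0.018). The call for AEN was lost in 12 of the 24 fits that left out a library (adjusted p up to 0.12). From 6 to 24 h the log2 fold change moved by -0.89 for CCND2 and by -0.44 for AEN, the latter not called without replicate 3 of control at 24 h (adjusted p = 0.056). From 6 to 48 h it moved by -0.92 for CCND2 and by 0.87 for CCND3. From 24 to 48 h it moved by 0.56 for CCND3, a call lost in 8 of the 24 fits that left out a library, each of them without a library of 24 or 48 h (adjusted p of 0.050 to 0.099), and on the TPM scale with limma (0.26). On the TPM scale with limma the joint test kept CCND3, called CDKN2D as well (adjusted p = 0.0054), and lost CCND2, CDKN1A and AEN (adjusted p = 0.52, 0.999 and 0.96), and the differences of CCND2 from 6 to 24 h and 6 to 48 h and of AEN from 6 to 24 h were not called there either (0.27, 0.39 and 0.9999).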

How the results depend on the processing

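The number of the 10 genes called at 6, 12, 24 and 48 h was 1, 1, 4 and 3 with all libraries. It was 6, 5, 8 and 6 in the 22 libraries, an alternative that leaves out the 2 that stood apart, and the same with a replicate block added there (chosen after seeing the data). When only the groups compared were fitted, it was 6, 0, 8 and 5. On the TPM scale, fitted only with all 24 libraries, it was 0 at 6 h and 0 at 12 h with either pseudocount. The joint test between times called 4, against 10 in the 22 libraries with or without the block and 2 on the TPM scale. Control over time called 8, and 5 on log2(TPM + 0.1). Leaving out each library in turn gave 1 to 1, 1 to 3, 2 to 6 and 3 to 5 genes at the 4 times, 3 to 6 between times and 7 to 9 in control. The count was 2 at 24 h without replicate 3 of control or replicate 2 of DMF of that time, and 5 at 48 h without replicate 3 of 12 h of either treatment. At 12 h it was 3 without replicate 3 of control, and 2 without replicate 2 of control or replicate 3 of DMF.

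Signs changed only for log2 fold changes that were not called with all libraries. In the 22 libraries these were CDK4, CDK6 and AEN at 12 h (0.13, -0.017 and 0.012) and CDKN1B at 24 h (0.0022), and with the block there 0.13, -0.018, 0.012 and 0.0020. On log2(TPM + 0.1) and log2(TPM + 1) they were MDM2 at 6 h (-0.020 and -0.019), CDK4 and AEN at 12 h (0.067 and 0.067, 0.026 and 0.024), and CDK4 and CDK6 at 48 h (0.099 and 0.099, 0.045 and 0.042). CDKN2D at 12 h was -0.0028 when only the groups compared were fitted. Leaving out a library gave ranges across 0 for 10 values: AEN at 12 h (-0.096 to 0.012), CCND3 at 6 h (-0.049 to 0.013), CDK4 at 12 h (-0.33 to 0.42), CDK6 at 12 h (-0.37 to 0.36), CDK6 at 6 h (-0.073 to 0.012), CDKN1B at 24 h (-0.036 to 0.0024), CDKN2C at 12 h (-0.065 to 0.58), CDKN2D at 12 h (-0.41 to 0.45), MDM2 at 12 h (-0.086 to 0.48), MDM2 at 48 h (-0.031 to 0.070). CDK4 at 12 h was called at 0.42 without replicate 3 of control (adjusted p = 0.048). The causes were not tested.

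Same-numbered libraries of the 2 treatments were not paired by source in the labels. Their deviations from the group means correlated at -0.060 to 0.90, above 0.1 in 3 of 12 pairs, those of 12 h. With a replicate block in the fit of all libraries no call of the 10 genes changed, and only CDKN1B at 24 h changed sign (0.0029). That block gave each replicate number the same effect at all 4 times. It could not isolate a correlation seen only at 12 h, and pairing within a time was not tested. The TPM scale moved the median log2 fold change of all genes to -0.14 at 6 h and 0.22 at 48 h, against -0.0021 and 0.015 with TMM. Over all genes, calls at the 4 times were there 237, 397, 833 and 2210 higher and 699, 860, 426 and 809 lower, against 675, 989, 1048 and 1785 higher and 750, 1335, 885 and 1680 lower with TMM. The shallowest library, replicate 1 of DMF at 48 h with 2870751 counts, set the lowest precision; without it the count at 48 h was 3.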
